A study of Mus musculus with 10 samples.

Results

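Loss of 1 Rxra allele from cortical excitatory neurons was examined by comparing the Hetero libraries (n = 2) with the Loxp libraries (n = 4), 6 of the 10 RNA sequencing libraries in the series. All came from the S1BF, the barrel field of the somatosensory cortex, of C57BL/6 mice at postnatal day 17. Loxp carried Rxratm1Krc/J, a floxed Rxra, with no Cre driver. Hetero carried Nex-cre with the same floxed Rxra and is labelled Rxra cKO-Het, and the 4 cKO libraries, labelled Rxra cKO with Nex-cre, are given only where they show where a Hetero value lies. Hetero and Loxp therefore differed in Nex-cre as well as in the deleted allele, and the part of each cannot be told apart. The labels do not say that each library came from its own mouse, so p-values measure only the spread between these libraries. All genes were members of the comparison, and 18455 of the 52636 in the table had enough counts to be tested.

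Rxra encodes retinoid X receptor alpha, a nuclear receptor that binds DNA as a partner of retinoic acid, thyroid hormone, PPAR, LXR and Nr4a receptors. Nex-cre drives the recombinase from Neurod6, a transcription factor gene of postmitotic excitatory neurons, and it leaves interneurons and glia without Cre. The barrel field receives whisker input, and sensory input there induces a rapid set of genes that neurons switch on with firing. These activity-regulated genes comprise transcription factors, synaptic effectors and the phosphatases and kinases that end the signal.

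Levels are CPM, read counts relative to the library total, scaled with TMM factors, and fold changes are log2 values of Hetero against Loxp fitted by edgeR. Total counts were 20485199 to 26086337 in Loxp and 19332990 and 22198491 in Hetero, with mitochondrial genes taking 2.80% to 3.68% of counts over all 10 libraries. Excitatory markers stood at the Loxp level in both Hetero libraries, with a median log2 difference of −0.02 in Hetero 1 and 0.01 in Hetero 2 over 11 genes. Xist was counted at 375, 611, 0.236 and 520 CPM in Loxp 1 to 4 and at 580 and 477 CPM in Hetero 1 and 2. The library labelled Loxp 3 held Y-linked transcripts, with Ddx3y at 42.7 CPM against at most 0.319 CPM in the other 5. Without Loxp 3, the median log2 fold change of the activity-regulated genes described below was −0.35, against −0.37 with all libraries. Beyond such fits, the part of Loxp 3 in the results was not tested.

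No gene passed the threshold in Hetero against Loxp. edgeR called 0 of 18455 genes at an adjusted p under 0.05 (0% called), and the smallest adjusted p was 0.599. At an unadjusted p under 0.05 stood 468 genes, 231 lower and 237 higher. DESeq2 called 17 genes (7 lower, 10 higher) and limma-voom 0. The authors' deposited table gave an adjusted p under 0.05 to 25 of 27904 genes (0.0896% called), 11 lower and 14 higher. With no gene passing edgeR, the values below are described by whether both Hetero libraries lay outside the range of all 4 Loxp libraries. That was so for 1065 genes below the Loxp range (5.77%) and 1040 above it (5.64%), and single genes are named only where it holds, apart from Rxra, Neurod6 and cell type markers. The edgeR adjusted p of all the genes named in these results lay between 0.599 and 0.9998.

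The 2 Hetero libraries were closer to each other than any pair of Loxp libraries. Over 15239 genes with a mean log2 CPM above 0, 127 differed by more than 2-fold between Hetero 1 and Hetero 2, against 258 to 441 between pairs of Loxp libraries and 183 to 284 between a Hetero and a Loxp library. The SD of the log2 difference was 0.28 between the Hetero libraries and 0.35 to 0.41 between Loxp libraries. Of the 59 genes more than 2-fold higher in Hetero 2 than in Hetero 1, 8 belonged to the choroid plexus markers described further on, and 68 genes were more than 2-fold lower. The plot of both Hetero libraries against Loxp separates these cases.

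**Figure D1:**
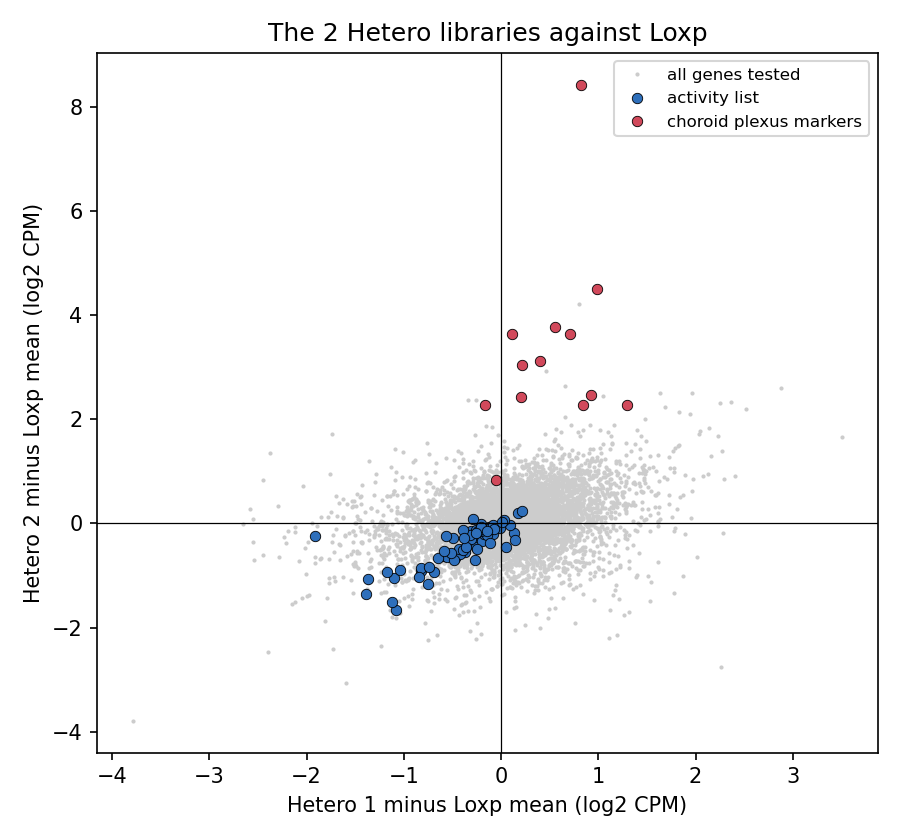
Each point is a gene, with the difference of Hetero 1 (x axis) and of Hetero 2 (y axis) from the Loxp mean in log2 CPM; grey marks all 18455 genes tested, blue the 68 activity-regulated genes and red the 13 choroid plexus markers. Activity-regulated genes lie mostly below 0 on both axes, whereas choroid plexus markers lie high on the Hetero 2 axis.

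Rxra itself was not distinguishable between the groups. Its CPM were 24.5, 21.6, 28.3 and 31.8 in Loxp 1 to 4 and 23.2 and 26.4 in Hetero 1 and 2, all within the Loxp range. The log2 fold change of Rxra was −0.10 (SE 0.139; exact permutation p = 0.733, two-sided, over 15 arrangements). Without the library labelled Loxp 4 it was 0.01. Counts per gene take in reads from cells without Cre and from transcripts that lack the floxed exon, so they do not check whether the allele was deleted. Neurod6 (chromosome 6, 55677822 to 55681263, GRCm38), the locus of Nex-cre, was counted at 66.7, 55.7, 61.9 and 34.9 CPM in Loxp 1 to 4 against 34.4 and 34.0 in Hetero. Both Hetero libraries thus lay below all Loxp libraries, but the library labelled Loxp 4 was only just above them. The log2 fold change of Neurod6 was −0.68 (SE 0.241; exact permutation p = 0.133, two-sided), and 15 arrangements allow no p under 0.0667.

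Genes close to either locus were counted apart. Within 10 Mb of Rxra, 7 of 295 tested genes lay below all Loxp libraries and 19 above, together 8.81% against 11.4% of all genes. Within 10 Mb of Neurod6 the counts were 8 below and 9 above of 110, together 15.5%.

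Activity-regulated genes were lower in both Hetero libraries. Of the 68 genes on this list, all of which were tested, 64 had a log2 fold change below 0 (94.1%, against 51.8% of all genes), and the median was −0.37 against −0.01 over all genes. Both Hetero libraries lay below all 4 Loxp libraries for 35 of them (51.5%, against 5.77% of all genes), and above for 1, Inhba. Taken alone, Hetero 1 lay below all Loxp libraries for 43 members and Hetero 2 for 41. edgeR called 0 of the 68, with 30 at an unadjusted p under 0.05. DESeq2 called 6 members, and 8 were called in the authors' deposited table.

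By library, the list's median log2 difference from the Loxp mean was −0.33 in Hetero 1 and −0.33 in Hetero 2. It was 0.10, −0.24, 0.05 and 0.09 in Loxp 1 to 4, so that Loxp 2 lay between the other Loxp libraries and Hetero. The 4 cKO libraries stood at −0.32, −0.31, −0.13 and −0.21, with cKO 1 and cKO 2 near the Hetero level and cKO 3 and cKO 4 above Loxp 2. Leaving out 1 library at a time moved the list's median log2 fold change from −0.46 (without Loxp 2) to −0.31 (without Loxp 1). On the authors' FPKM, which are per length, the most abundant member in Loxp averaged 341 ± 125 (SD, n = 4). It stood near that mean in Hetero, at 343 and 317 in Hetero 1 and 2, and is not named under the side rule. Arc and Egr1 averaged 175 ± 68 and 141 ± 21.9 in Loxp. In Hetero 1 and 2 the FPKM of Arc were 76.7 and 58.9, and those of Egr1 101 and 88.2.

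Transcription factors of the AP-1 family, which bind DNA as Fos and Jun dimers, were lower for 8 of 8 genes, with a median log2 fold change of −0.76. Both Hetero libraries lay below all Loxp for 6 of them. Fos (chromosome 12, 85473890 to 85477273) was counted at 61.7, 48.7, 72.1 and 86.9 CPM in Loxp 1 to 4 against 30.7 and 31.6 in Hetero. The Hetero libraries were nearly equal and well under the lowest Loxp library, with a difference of −1.11 on the log2 scale (SE 0.207, edgeR adjusted p = 0.599). Its DESeq2 adjusted p was 0.00139, and the authors' deposited table gave −1.11 with an adjusted p of 8.7e-06. Fosb, a second Fos family member, stood at 26.1, 14.1, 26.0 and 22.7 CPM in Loxp against 12.2 and 11.5 in Hetero (log2 fold change −0.91, SE 0.265). Fosl2 stood at 70.6, 51.2, 77.3 and 88.7 CPM in Loxp against 46.9 and 45.5 in Hetero (−0.64, SE 0.195). Junb, the Jun partner most tied to induced AP-1, ranged from 94.5 to 240.3 CPM in Loxp against was 94.2 and 79.5 in Hetero (−0.88, SE 0.307), so Hetero 1 was only just outside the Loxp range. Jund and Maff also lay below the Loxp range, with smaller log2 fold changes of −0.30 (SE 0.112) and −0.55 (SE 0.291).

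Among the Egr and Klf zinc finger factors, 7 of 8 were lower and the 3 with both Hetero libraries below Loxp were Egr1, Egr2 and Egr3. Egr2 (chromosome 10, 67535475 to 67542188) was counted at 31.5, 18.9, 32.6 and 40.8 CPM in Loxp against 14.0 and 9.44 in Hetero. Egr2 had the widest Egr difference, −1.40 on the log2 scale (SE 0.279, edgeR adjusted p = 0.599; DESeq2 adjusted p = 0.00139). The authors' deposited table did not call Egr2 (−1.40, adjusted p = 0.144). Egr1, the most abundant of the 3 by FPKM, stood at 600.3, 522, 690 and 743 CPM in Loxp against 455 and 398 in Hetero (log2 fold change −0.58, SE 0.191). Egr3 stood at 286, 208, 293 and 282 CPM in Loxp against 205 and 181 in Hetero (−0.47, SE 0.170), with Loxp 2 nearly at the level of Hetero 1. Egr genes encode factors that carry firing into later transcription.

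The Nr4a genes encode orphan nuclear receptors, of which Nr4a1 and Nr4a2 can pair with retinoid X receptors. All 3 were lower, and 1 lay below the Loxp range in both Hetero libraries. Nr4a1 was counted at 241, 153, 254 and 433 CPM in Loxp against 150 and 113 in Hetero (log2 fold change −1.04, SE 0.334). Hetero 1 was thus within a few CPM of Loxp 2.

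Other induced regulators of transcription were lower for 11 of 11 genes, with a median of −0.52 and 7 below the Loxp range in both Hetero libraries. Csrnp1, a nuclear protein of the immediate early set, stood at 16.9, 13.4, 17.2 and 28.5 CPM in Loxp against 8.07 and 9.53 in Hetero (log2 fold change −1.11, SE 0.257). The annotation places its gene within that of Cx3cr1 on the same strand, so reads of the shared stretch make its count uncertain. Btg2, an antiproliferative gene induced with firing, stood at 25.4, 18.4, 16.3 and 58.2 CPM in Loxp against 9.81 and 10.1 in Hetero. Loxp 4 set much of that gap: the log2 fold change was −1.57 (SE 0.441) with it and −1 without it. Tiparp, a mono-ADP-ribosyltransferase, varied little among Loxp libraries, with 17.8 to 21.3 CPM in Loxp against 13.6 and 12.8 in Hetero (−0.60, SE 0.143). Ier2, Per1 and Nfil3 also lay below the Loxp range, at −0.91 (SE 0.259), −0.49 (SE 0.180; −0.33 without Loxp 4) and −0.48 (SE 0.161; −0.27 without Hetero 2).

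Synaptic and secreted effectors were lower for 16 of 18 genes with a smaller median, −0.20, and 7 lay below the Loxp range. Arc (chromosome 15, 74669083 to 74672570), which drives removal of AMPA receptors from synapses, was counted at 450.2, 356, 519 and 833 CPM in Loxp against 235 and 181 in Hetero. Every Loxp library was above both Hetero libraries, and the log2 fold change was −1.37 (SE 0.314, edgeR adjusted p = 0.733). Arl4d, a small GTPase of the ARF family, stood at 50.3, 36.6, 44.0 and 47.0 CPM in Loxp against 31.6 and 27.2 in Hetero (−0.60, SE 0.132). The kinases Plk2 and Plk3 stood at −0.28 (SE 0.101) and −0.46 (SE 0.149). Cyr61, a secreted matrix protein, ranged from 6.41 to 23.5 CPM in Loxp against was 4.34 and 5.35 in Hetero (−1.40, SE 0.424; −0.92 without Loxp 4). Rgs2 was −0.32 (SE 0.141; −0.19 without Loxp 1).

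Feedback regulators, which switch the signal off, were lower for 19 of 20 genes with a median of −0.30, and 11 lay below the Loxp range. Sik1, a salt-inducible kinase that restrains CREB coactivators, stood at 24.6, 17.1, 26.3 and 39.1 CPM in Loxp against 12.5 and 13.8 in Hetero (log2 fold change −1.03, SE 0.247). Trib1, a pseudokinase, stood at 50.8, 42.9, 51.4 and 79.8 CPM in Loxp against 32.7 and 30.5 in Hetero (−0.83, SE 0.193). Phosphatases that act on MAP kinases were in the same range. Dusp6, the ERK phosphatase, stood at 115, 109, 122 and 158 CPM in Loxp against 87.3 and 83.9 in Hetero (−0.56, SE 0.156). Dusp1 and Dusp5 were −1.02 (SE 0.298) and −0.69 (SE 0.212), and Spry2, an inhibitor of receptor tyrosine kinase signalling, −0.42 (SE 0.154). By contrast, 27 genes of the MAP kinase and calcium pathways that lie upstream had a median of 0.0036, with 13 lower and only Srf, which encodes a factor that acts on the Fos and Egr promoters, below the Loxp range (−0.20, SE 0.0964).

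The promoters of these genes were searched for the sites of the factors that act on them. RefSeq gave the 250 bases before the gene start (GRCm38.p6) for 54 of the 68 list members. Arc, Egr1, Egr3, Sik1 and Trib1 were among the members left out. The cyclic AMP response element TGACGTCA, the site of CREB, was found in 8 of 54 (14.8%), and in 1.56% of 32536 promoters of that length. The shorter TGACG, its left part, on either strand and counted also within the whole element, was found in 30 (55.6%, against 17.9%). This shorter site was added to the search after the other motifs had been counted. The AP-1 site TGANTCA was in 0 of 54 (6.73% of all promoters) and the CArG box, the site of Srf, in 1 (1.48% of all). AGGTCA, the single site of nuclear receptors that pair with retinoid X receptors, was in 6 of 54 (11.1%, against 14.0%), and 0 held a direct repeat of it with 1, 4 or 5 bases between. Among the 28 matched members with both Hetero libraries below Loxp, the counts were 5 for TGACGTCA, 18 for TGACG (64.3%) and 5 for AGGTCA (17.9%). A match describes the letters of these windows and is no measure of binding, and sites farther from the gene start were not searched.

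The promoters of the 4 matched members with the smallest p follow, with that of Btg2 for its whole element. Each is written 5′ to 3′ on the strand of the gene, and capitals mark TGACG on either strand, or the whole TGACGTCA. Positions count back from the RefSeq gene start.
Fos, chr12:85473640-85473889, plus strand: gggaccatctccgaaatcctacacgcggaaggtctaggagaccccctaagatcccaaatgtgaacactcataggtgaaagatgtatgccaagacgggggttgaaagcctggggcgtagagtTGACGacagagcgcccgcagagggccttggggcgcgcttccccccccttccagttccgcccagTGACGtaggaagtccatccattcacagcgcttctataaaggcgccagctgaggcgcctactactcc
Egr2, chr10:67535249-67535498, plus strand: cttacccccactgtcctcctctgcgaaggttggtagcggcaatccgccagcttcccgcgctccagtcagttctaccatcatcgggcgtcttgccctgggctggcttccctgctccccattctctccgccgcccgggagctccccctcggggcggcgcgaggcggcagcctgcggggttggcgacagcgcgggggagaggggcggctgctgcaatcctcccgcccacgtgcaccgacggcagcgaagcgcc
Arl4d, chr11:101665291-101665540, plus strand: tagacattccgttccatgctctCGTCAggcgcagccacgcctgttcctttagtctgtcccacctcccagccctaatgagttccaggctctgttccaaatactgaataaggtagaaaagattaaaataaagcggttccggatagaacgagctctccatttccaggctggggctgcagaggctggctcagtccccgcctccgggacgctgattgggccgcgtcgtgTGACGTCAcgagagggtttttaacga
Csrnp1, chr9:119984743-119984992, minus strand: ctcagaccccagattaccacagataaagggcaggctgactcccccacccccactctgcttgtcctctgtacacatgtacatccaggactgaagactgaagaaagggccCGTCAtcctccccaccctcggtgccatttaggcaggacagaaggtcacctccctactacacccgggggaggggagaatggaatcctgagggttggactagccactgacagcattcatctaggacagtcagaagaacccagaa
Btg2, chr1:134079156-134079405, minus strand: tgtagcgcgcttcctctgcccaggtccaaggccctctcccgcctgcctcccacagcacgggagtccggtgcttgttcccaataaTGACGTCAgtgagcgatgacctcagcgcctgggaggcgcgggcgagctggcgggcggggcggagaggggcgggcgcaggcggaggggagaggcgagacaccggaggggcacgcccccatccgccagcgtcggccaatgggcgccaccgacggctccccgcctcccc
Fos held the shorter site at −129 and −66. Arl4d held the whole element at −26 and the shorter site at −228, and Btg2 the whole element at −166. Csrnp1 held the shorter site at −142, and the window of Egr2 held none.

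Clock, glucocorticoid and chaperone lists were also mostly lower. Clock genes were lower for 20 of 24 (median −0.18), with 6 below the Loxp range (25% of them, against 5.77% of all genes), 2 of these shared with the activity list. With the replicate number as a block the clock median was −0.05. All 11 clock repressors were lower, against 3 of 6 activators. Bhlhe40, a clock repressor, stood at 111, 82.5, 128 and 116 CPM in Loxp against 72.1 and 80.1 in Hetero (log2 fold change −0.52, SE 0.210). Genes induced by glucocorticoids were lower for 19 of 21, with 8 below the Loxp range, of which 3 are also activity genes, while both receptor genes were slightly higher. Tsc22d3, the glucocorticoid-induced leucine zipper, stood at 103, 85.9, 74.0 and 89.1 CPM in Loxp against 64.7 and 65.3 in Hetero (−0.44, SE 0.169). The median of the whole glucocorticoid list was −0.17 (−0.30 without Hetero 2). Chaperone and unfolded protein genes were lower for 27 of 32 with a small median of −0.12 (−0.07 without Loxp 1). Of these 32 genes 3 lay below the Loxp range (9.38%), near the 5.77% of all genes, and 0 were on the activity list. Dnajb5, a cytosolic co-chaperone, was the tightest of those, at 302 to 327 CPM in Loxp against 264 and 252 in Hetero (−0.29, SE 0.106).

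**Figure D2:**
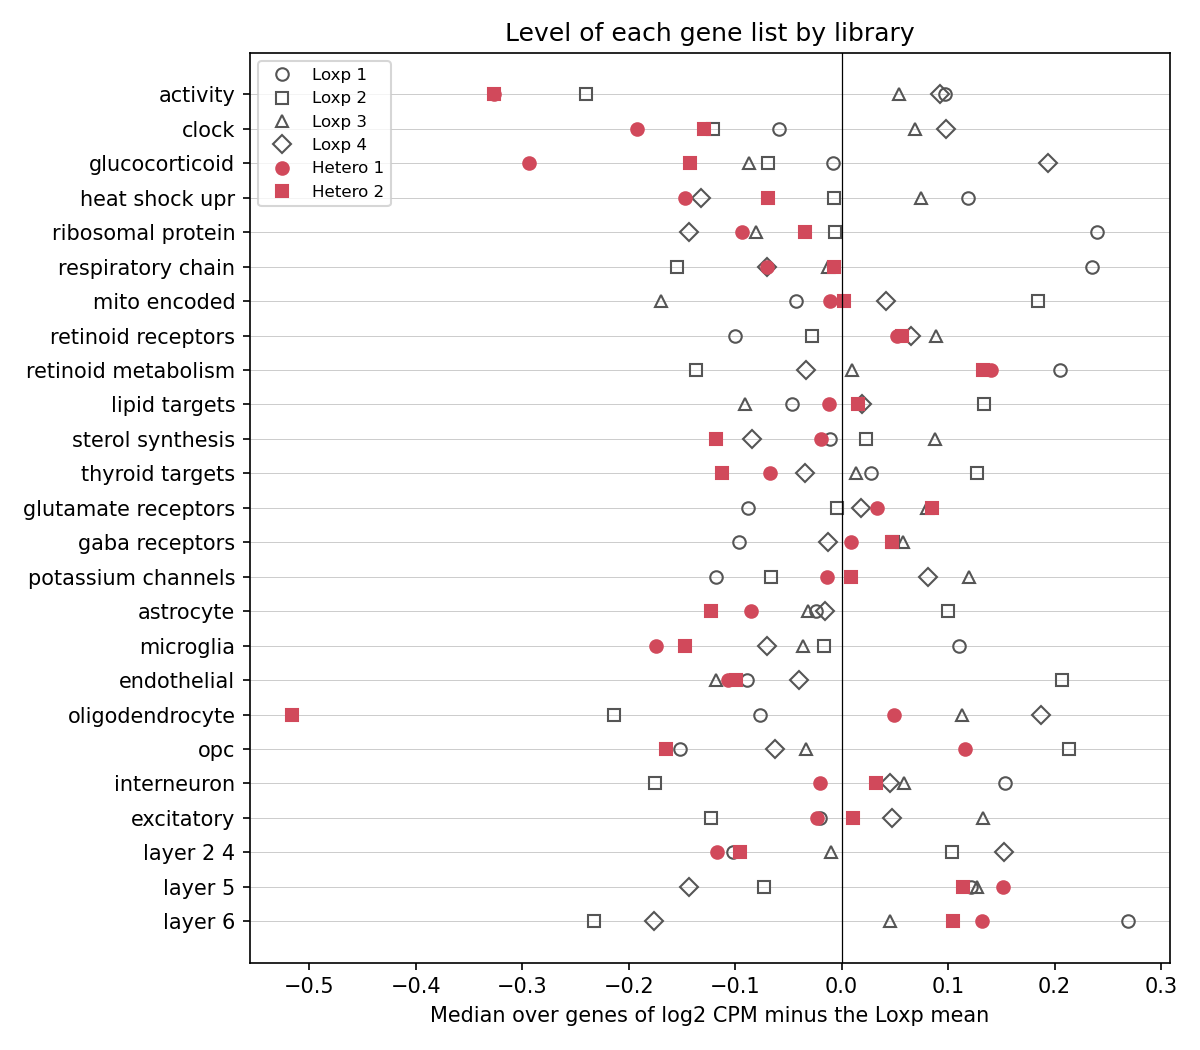
The x axis gives, for each gene list (rows) and library (symbols), the median over genes of log2 CPM minus the Loxp mean; open grey symbols are Loxp 1 to 4, filled red symbols Hetero 1 and 2. The activity list has both Hetero libraries at −0.33, below Loxp 2 at −0.24, and the oligodendrocyte list has Hetero 2 apart at −0.52.

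Both lists of genes tied to the receptor leaned slightly higher, with the level of each Hetero library inside the Loxp range. Of 26 nuclear receptor and coregulator genes tested of 29, 10 were lower, the median was 0.04, and only Nr4a1 lay outside the Loxp range. The 3 retinoid X receptor genes had a median of −0.10, and the 3 retinoic acid receptor genes 0.07. Retinoid metabolism and target genes were higher for 15 of 20 (median 0.13, also without Hetero 2). Of these 20 genes 1 lay below the Loxp range and 1 above it (5% each, against 5.77% and 5.64% of all genes). Summed over the list, Hetero 2 stood apart at 1090 CPM, against 397.8 in Hetero 1 and 367.8 to 386 in Loxp. Aldh1a1, which makes retinoic acid, stood at 60.7, 58.2, 55.7 and 70.9 CPM in Loxp against 49.2 and 50.8 in Hetero (log2 fold change −0.30, SE 0.224). Aldh1a2, a second such enzyme, had few reads, at 2.01 to 3.03 CPM in Loxp against 3.22 and 3.42 in Hetero (0.36, SE 0.466).

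Targets of the receptors that pair with Rxra were near Loxp as well. LXR and PPAR targets had 15 of 25 lower and a median of −0.02, with 2 below the Loxp range (Scd2 and Ucp2) and 4 above it (Abcg4, Lpcat3, Plin2 and Cd36). Plin2, a coat protein of lipid droplets, stood at 3.15 to 4.48 CPM in Loxp against 4.8 and 4.77 in Hetero (log2 fold change 0.31, SE 0.238). Sterol synthesis genes were lower for 20 of 24 by a median of only −0.09 (−0.02 without Hetero 2), and none lay outside the Loxp range.

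Of 20 thyroid hormone targets 15 were lower (median −0.11, and −0.08 without Loxp 4), with Klf9 and Thrsp below the Loxp range. Thrsp is described further on with its neighbour Ndufc2.

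Synapse and channel lists had medians near 0. Glutamate receptor genes were higher for 24 of 31, with a median of 0.05. Only Grin2d, an NMDA receptor subunit, lay above the Loxp range in both Hetero libraries (0.15, SE 0.249). Taken alone, Hetero 2 lay above all Loxp libraries for 9 of the 31 and Hetero 1 for 1. Over all genes these shares were 13.9% for Hetero 2 and 14.5% for Hetero 1. GABA receptor genes had a median of 0.02 over 14 tested. Of these, 2 lay below the Loxp range (14.3%, against 5.77% of all genes) and 1 above it (7.14%, against 5.64%). Of 43 potassium channel genes, 1 lay below the Loxp range (Kcnk1) and 5 above (Kcna3, Kcnd3, Kcng1, Kcnk9 and Kcnn3), around a median of −0.03. These were 2.33% and 11.6% of the list, against 5.77% and 5.64% of all genes. Kcnk9, a two-pore channel, stood at 20.1 to 34.0 CPM in Loxp against 34.6 and 34.7 in Hetero (0.30, SE 0.183; 0.17 without Loxp 1), just outside the highest Loxp library. Genes of barrel map formation had a median of 0.03, with Btbd3, which orients dendrites toward active axons, at 132, 145, 142 and 151 CPM in Loxp against 113 and 124 in Hetero (−0.27, SE 0.104). Lhx2 and Eomes were the others below the Loxp range, which held for 3 of the 23 tested (13%, against 5.77% of all genes).

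Layer markers did not move together across the cortex. The median was −0.14 over 14 markers of layers 2 to 4, 0.12 over 13 of layer 5 and 0.13 over 14 of layer 6. Leaving out 1 library moved these medians over −0.21 (without Loxp 1) to −0.07 (without Loxp 4), 0.08 (without Loxp 4) to 0.18 (without Loxp 3) and 0.03 (without Loxp 2) to 0.19 (without Loxp 1). The difference between layers was not tested. Fezf2, the selector gene of layer 5 projection neurons, stood at 56.7, 39.0, 53.8 and 43.2 CPM in Loxp against 59.3 and 59.5 in Hetero (0.30, SE 0.156). Ntsr1 and Foxp2, markers of layer 6 corticothalamic cells, also lay above the Loxp range at 0.33 (SE 0.226) and 0.30 (SE 0.276; 0.20 without Loxp 2). Rspo1 and Lamp5, upper layer genes, lay below it at −0.62 (SE 0.313) and −0.18 (SE 0.181), and Otof above it at 0.43 (SE 0.444). Interneuron markers had a median of 0.0014, with Vip at 33.7 to 36.3 CPM in Loxp against 28.0 and 31.5 in Hetero (−0.23, SE 0.0907; −0.15 without Hetero 1) and Lhx6 at 22.2 to 27.2 in Loxp and 29.0 and 32.0 in Hetero (0.28, SE 0.115). In bulk tissue, fewer cells of a type and less RNA per cell cannot be told apart.

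Astrocyte and microglia markers were slightly lower in both Hetero libraries. Astrocyte markers were lower for 13 of 15 (median −0.11, and −0.07 without Loxp 2), with 6 below the Loxp range (40% of them, against 5.77% of all genes). S100b, a calcium-binding protein of astrocytes, stood at 63.5, 67.4, 58.9 and 62.7 CPM in Loxp against 49.3 and 53.9 in Hetero (−0.29, SE 0.0994). Fgfr3 and Gjb6, a growth factor receptor and a gap junction protein of astrocytes, were −0.32 (SE 0.121; −0.21 without Hetero 1) and −0.37 (SE 0.176). Microglia markers were lower for 11 of 12 (median −0.19, and −0.10 without Loxp 1), with 6 below the Loxp range (50% of them). C1qb, a subunit of complement C1q, stood at 29.3 to 36.6 CPM in Loxp against 25.6 and 28.1 in Hetero (−0.27, SE 0.136). Oligodendrocyte markers split the Hetero libraries: the level was 0.05 in Hetero 1 and −0.52 in Hetero 2, against −0.21 to 0.19 in Loxp. Their median log2 fold change was −0.22 with both libraries and 0.04 without Hetero 2. Markers of oligodendrocyte precursors split in the same order, at 0.12 in Hetero 1 and −0.16 in Hetero 2 against −0.15 to 0.21 in Loxp, with 7 of 12 lower and only Olig1 below the Loxp range.

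Markers of blood and of neighbouring tissue varied among the Loxp libraries themselves. Summed red cell markers were 211, 123, 111.2 and 3.27 CPM in Loxp 1 to 4 against 22.3 and 37.3 in Hetero. Summed striatal markers were 1257, 320.8, 1072 and 680.3 CPM in Loxp against 759.2 and 583.1 in Hetero. The Hetero libraries lay within the Loxp range on both lists, and the part of either in the activity gene values was not tested.

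Choroid plexus markers set Hetero 2 apart. The choroid plexus is the secretory epithelium of the ventricles, and its transcripts are not those of cortical neurons. Of 16 markers 13 passed the filter, 11 of them at an unadjusted p under 0.05, and all 13 were higher with a median log2 fold change of 2.32. Taken alone, Hetero 2 lay above all Loxp libraries for 13 and Hetero 1 for 8, and both did for 8 (61.5%, against 5.64% of all genes). Weakly counted markers could pass the filter through the libraries in which they were high, so these counts describe only the markers that passed. Summed over the 13, the markers reached 225.3 to 272.3 CPM in Loxp, 240.3 in Hetero 1, 1184 in Hetero 2 and 173.4 to 282.8 in cKO.

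Ttr, the thyroxine carrier secreted by this epithelium, was counted at 1.35, 4.40, 4.09 and 0.558 CPM in Loxp 1 to 4, at 3.52 in Hetero 1 and at 699 in Hetero 2. Hetero 1 was thus within the Loxp range and Hetero 2 far above it. Clic6, a chloride channel protein, stood at 0.399 to 0.771 CPM in Loxp against 0.868 and 8.81 in Hetero. Aqp1, the water channel, stood at 0.431 to 0.915 CPM in Loxp against 0.971 and 7.96 in Hetero. Sostdc1, a secreted BMP and Wnt antagonist, stood at 0.670 to 1.20 CPM in Loxp against 1.23 and 8.59 in Hetero, and Col8a2, a collagen chain, at 0.670 to 0.917 and 1.58 and 4.77. In the last 4 genes Hetero 1 lay above the Loxp range, by little except in Col8a2, while Hetero 2 set the size of the difference. Lbp, which encodes the lipopolysaccharide-binding protein, and Slc4a5, a bicarbonate transporter, followed the same order, with log2 fold changes of 1.69 (SE 0.386) and 3.998 (SE 0.747).

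Without Hetero 2 the median of the 13 markers was 0.45 and edgeR called 0 genes, and without Hetero 1 the median was 3.13 and edgeR called 15 genes, all higher, of which 11 were choroid plexus markers. In either fit the lone Hetero library is assumed to vary as the Loxp and cKO libraries do, so these calls describe that library and not the genotype. The log2 fold change of Aqp1 was 2.94 with both Hetero libraries, 0.74 without Hetero 2 and 3.77 without Hetero 1. Kcnj13 and Enpp2, further markers, were −0.58 and −0.06 without Hetero 2. Of the 25 genes called in the authors' deposited table, 8 were choroid plexus markers and 8 activity genes.

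**Figure D3:**
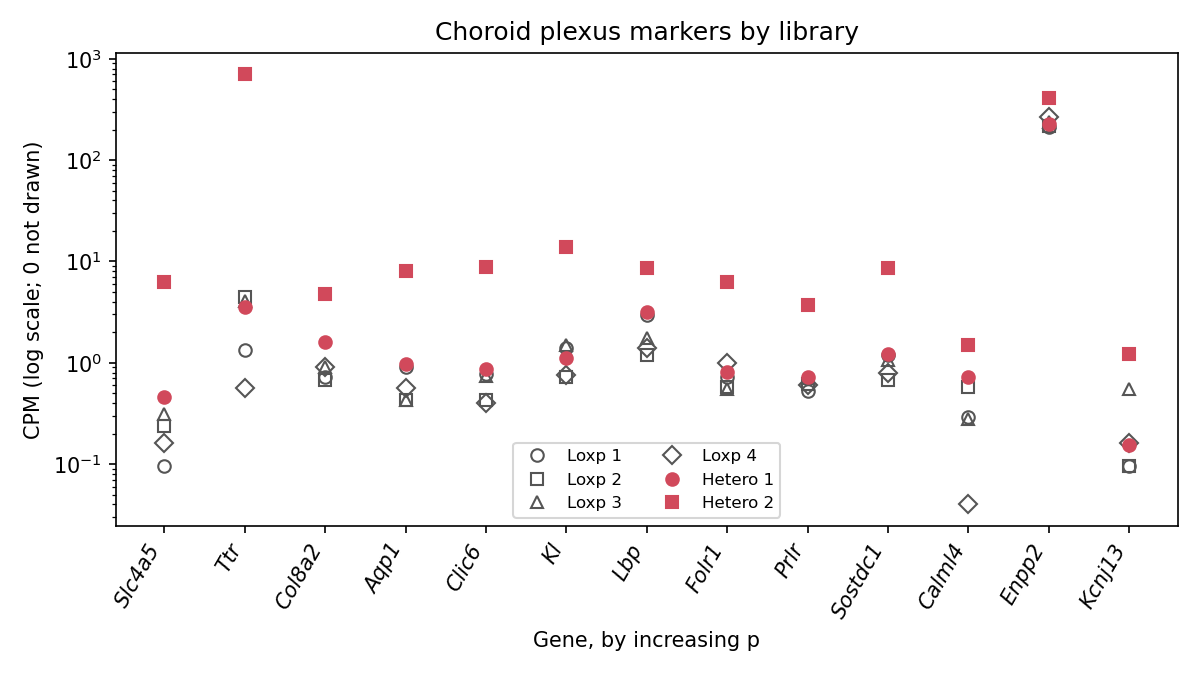
CPM on a log scale of the 13 choroid plexus markers tested, by increasing p; open grey symbols are Loxp 1 to 4, filled red circles Hetero 1 and filled red squares Hetero 2. Hetero 2 is the highest library for all 13, while Hetero 1 lies above the Loxp range for 8 of them and within it for the others, as for Ttr at 3.52 against 699 CPM.

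Other named genes above the Loxp range in both Hetero libraries ranged widely in size. Crb2, a polarity protein of apical membranes, varied little among Loxp libraries, at 8.52, 8.61, 10.2 and 9.05 CPM in Loxp against 12.4 and 15.4 in Hetero (log2 fold change 0.61, SE 0.148, edgeR adjusted p = 0.851). Slc2a12, a glucose transporter, stood at 1.40, 1.82, 2.08 and 1.83 CPM in Loxp against 3.12 and 6.20 in Hetero (1.38, SE 0.305). As with the choroid plexus markers, Hetero 2 was the higher, and without it the value was 0.80. F5, coagulation factor V, followed them too, at 0.708 to 0.861 CPM in Loxp against 1.12 and 6.61 in Hetero (2.28, and 0.50 without Hetero 2). Olfml2a, an extracellular matrix protein, stood at 1.42 to 1.67 CPM in Loxp against 2.61 and 3.15 in Hetero (0.91, SE 0.240). Igf2, a growth factor of meninges and choroid plexus, stood at 72.6, 76.9, 75.9 and 63.0 CPM in Loxp against 88.6 and 119 in Hetero (0.52, SE 0.247), with Col1a1 and Col1a2 the other meningeal genes above the Loxp range. Vtn, which encodes vitronectin and marks pericytes, stood at 55.4, 46.8, 46.8 and 46.8 CPM in Loxp against 58.0 and 59.6 in Hetero (0.27, SE 0.0964).

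Mitochondrial transcripts had no shared direction, with 7 of 13 higher and a median of 0.05. mt-Co3, a subunit of cytochrome c oxidase, stood at 24.4, 18.6, 29.9 and 19.0 CPM in Loxp against 34.6 and 61.6 in Hetero (1.07, SE 0.271; 0.59 without Hetero 2). Its value is uncertain, because the nuclear copy Gm28437 is 100% identical to it over 99.9% of its length. mt-Nd4l and mt-Nd3 were the others above the Loxp range. Nuclear respiratory chain genes were lower for 65 of 82 and ribosomal protein genes for 67 of 78, by medians of only −0.05 and −0.08, which became 0.04 and 0.01 without Loxp 1.

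Ndufc2 and Thrsp, both called lower in the authors' deposited table, are neighbours on chromosome 7. The pair was singled out after its values were seen. Ndufc2 (97400003 to 97407802), a subunit of respiratory complex I, stood at 63.7, 70.5, 59.5 and 66.0 CPM in Loxp against 45.9 and 45.8 in Hetero (−0.50, SE 0.141; adjusted p = 0.0229 in the authors' deposited table). Thrsp (97412938 to 97417730), a thyroid hormone-induced gene of lipid synthesis, stood at 14.3, 20.1, 15.8 and 21.1 CPM in Loxp against 8.84 and 11.1 in Hetero (−0.84, SE 0.265). In cKO, Ndufc2 was 43.9, 50.5, 59.8 and 65.8 CPM and Thrsp 13.4, 16.2, 16.2 and 27.8, so that cKO ran from the Hetero level into the Loxp range for Ndufc2 and stayed above Hetero for Thrsp. Of the 14 tested genes within 500 kb, 3 lay below the Loxp range (Ndufc2, Thrsp and Clns1a) and 4 above (Gab2, Usp35, Ints4 and Aamdc). Over all genes 5.77% lay below and 5.64% above, so both directions were more frequent in this window. The window was placed on the pair and its count includes the pair.

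**Figure D4:**
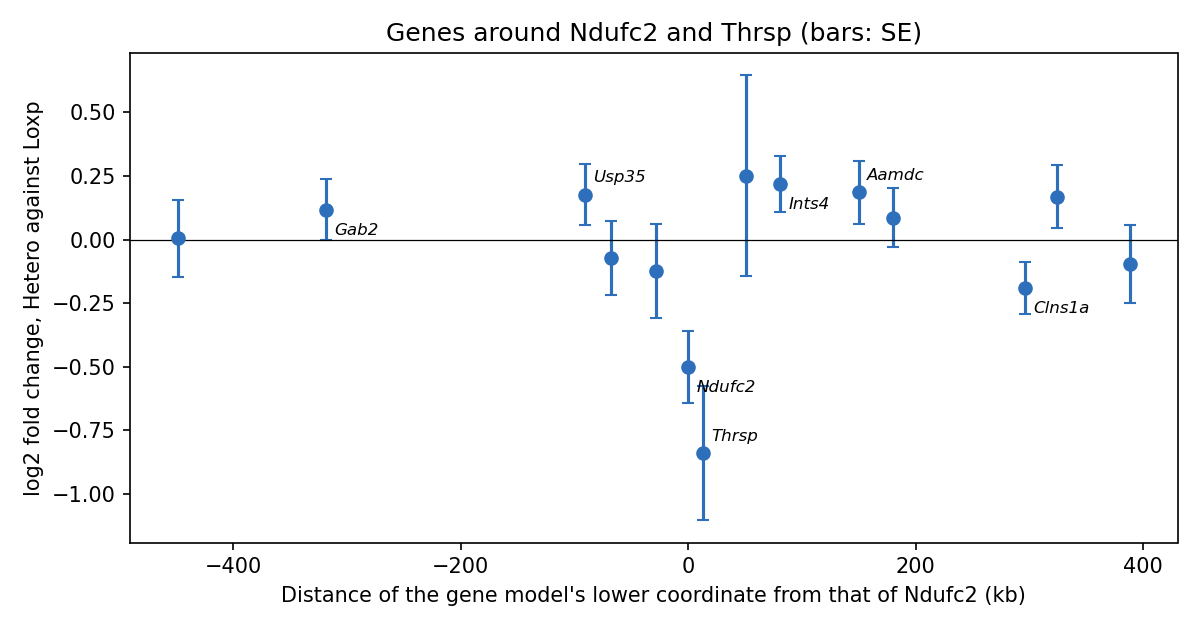
Log2 fold change of Hetero against Loxp with its SE (y axis) for the 14 tested genes within 500 kb, against distance in kb from Ndufc2 (x axis); genes with both Hetero libraries outside the Loxp range are labelled. Ndufc2 at −0.50 and Thrsp at −0.84 stand under their neighbours.

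Hetero was also set against cKO to see where it differed from full deletion. edgeR called 0 of 18455 genes (0% called), with 321 at an unadjusted p under 0.05. Both Hetero libraries lay below all 4 cKO libraries for 904 genes (4.9%) and above them for 837 (4.54%). Of the 68 activity genes 14 lay below all cKO libraries and 3 above, and 11 lay below both all Loxp and all cKO. Over all 18455 genes, 267 lay below both groups and 250 above both. Rxra itself was 29.0, 32.3, 29.3 and 32.0 CPM in cKO, above both Hetero libraries (23.2 and 26.4), a log2 difference of −0.30 for Hetero minus cKO (SE 0.140, edgeR adjusted p = 0.9999). Fos was 35.2, 44.0, 47.1 and 54.5 CPM in cKO, a log2 difference of −0.54 (SE 0.203) for Hetero minus cKO. Esd, which encodes the esterase that clears formaldehyde as S-formylglutathione, was low against both other groups: 37.9, 31.2, 30.4 and 38.5 CPM in Loxp, 21.7 and 27.1 in Hetero and 36.0 to 40.6 in cKO. Its log2 difference was −0.50 (SE 0.130) from Loxp and −0.66 (SE 0.130) from cKO. Apold1, an endothelial early response gene, stood at 14.0, 12.3, 8.22 and 15.6 CPM in Loxp against 5.72 and 5.71 in Hetero (−1.13, SE 0.252).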

How the data were processed

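RNA was extracted with Trizol, and 3 µg went into each NEBNext Ultra library, per the labels' protocols. The authors deposited whole-number read counts per gene, for which the submitters' processing notes name featureCounts 1.5.0-p3 and mm10, beside FPKM per gene. They also deposited the other columns of their own test (log2 fold change, p-value and adjusted p), read only as the authors' values. Sources used here do not give the aligner, annotation, strand setting or test tool. Gene coordinates come from GENCODE M21 (GRCm38), which held 52489 of 52636 gene IDs.

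Counts of all 10 libraries were fitted with edgeR 4.0.16 in R 4.3.3 (TMM, filterByExpr, glmQLFit, glmQLFTest), with a mean per group and the contrast Hetero minus Loxp. Adjusted p-values are Benjamini-Hochberg over all genes tested, with a threshold of 0.05, and a prior count of 2 was added for log2 CPM. The common biological coefficient of variation was 14.9%. The scripts were tested on simulated data. DESeq2 1.42.0, limma 3.58.1 (voom), other scalings and filters, the replicate number as a block and each library left out in turn were the alternatives.

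Named were the 12 lower and 12 higher genes with the smallest p among those with both Hetero libraries outside the Loxp range, a mean log2 CPM over 0 and a symbol that is no model number or pseudogene, and up to 6 such members of each list. Members of the role groups within the activity list, and neighbours of Ndufc2, were named by the same side rule after values were seen; Rxra, Neurod6 and cell type markers are exempt. The genes and lists were chosen with earlier results of these data known. Some genes are not reported here.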

Additional observations from a re-analysis of the deposited data

Results flagged for a closer look

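In 166 named results and list levels examined, 6 had 1 Loxp library far from the other 3, and chance marks about 1 in 20 groups. Vtn stood at 55.4 CPM in Loxp 1, where the other 3 were all 46.8, which narrows its distance from the Hetero libraries (58.0 and 59.6). Fam107a, a glucocorticoid-induced gene of astrocytes, stood at 449 CPM in Loxp 4, and Ndufb9, a subunit of complex I, at 162 CPM in Loxp 1. Egr3 stood at 208 CPM in Loxp 2, next to Hetero 1 at 205. The median log2 difference from the Loxp mean was −0.24 in Loxp 2 for the activity list and 0.1 in Loxp 2 for the astrocyte list.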

How the results depend on the processing

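Genes called by edgeR in Hetero against Loxp numbered 0. With no low-count filter 68 were called (34 lower, 34 higher; 18 activity genes and 13 choroid plexus markers), and 1663 genes in place of 1040 lay above the Loxp range. DESeq2 called 17, of which 12 are also called in the authors' deposited table. Leaving out 1 library at a time gave 0 to 15 calls, the 15 without Hetero 1. Counts stayed at 0 with DESeq2 size factors in edgeR, library totals alone, a minimum of 1 CPM in 2 of the 6 libraries, only Hetero and Loxp fitted, and limma-voom, with 338 to 519 genes at an unadjusted p under 0.05. The median of the activity list kept its direction, from −0.46 to −0.31, in the edgeR alternatives; it was not computed for DESeq2 or limma-voom.

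Labels give no meaning to the shared replicate numbers. Deviations of same-numbered libraries correlated at −0.05 and −0.03 between Loxp and Hetero and at 0.02 and 0.02 between Hetero and cKO. With 2 Hetero libraries the deviations mirror each other, so these values cannot show whether the numbers pair the samples. Between Loxp and cKO the same-numbered values were 0.08, 0.28, 0.17 and 0.46, each the highest for its Loxp library. Different-numbered values ran from −0.27 (Loxp 4 with cKO 2) to 0.08 (Loxp 3 with cKO 1). The numbers thus held some structure between Loxp and cKO. Because not every same-numbered pair was above 0.1, the main fit did not pair the samples. With the replicate number as a block 1 gene was called, Arc, at a log2 fold change of −0.997 (edgeR adjusted p = 0.0428; over the other alternatives for Arc, from 9.2e-09 with no low-count filter to 1). Under the block the direction turned for Kcnn3 (−0.0172), Rxra (0.0033), Klf9 (0.0094), Kcnk1 (0.0058) and Otof (−0.0125). With 1 library left out, Rxra ranged from −0.191 to 0.0103 (without Loxp 4), Enpp2 from −0.0553 (without Hetero 2) to 0.823, and Kcnj13 from −0.58 (without Hetero 2) to 2.36. The cause was not tested. With 2 Hetero libraries, 15 arrangements allow no exact p under 0.0667, and differences of genes near 1 CPM rest on few counts.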

Other observations

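Genes of motile cilia were mostly higher in both Hetero libraries. This list of axoneme and ciliary genes was drawn up after the values of Cfap46 and Dnah7b had been seen, so its counts are a description. Of 61 members 57 were tested, 49 were higher (median 0.27 on the log2 scale), and both Hetero libraries lay above all Loxp libraries for 18 (31.6%, against 5.64% of all genes). edgeR called 0 of them, with 10 at an unadjusted p under 0.05. The list's level was 0.32 in Hetero 1 and 0.25 in Hetero 2, −0.02 to 0.06 in Loxp, and 0.19, 0.52, 0.06 and 0.08 in cKO 1 to 4.

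Cfap46, a central apparatus protein, stood at 2.17, 2.06, 1.69 and 1.95 CPM in Loxp against 4.8 and 3.01 in Hetero (log2 fold change 0.99, SE 0.269; 0.62 without Hetero 1). Dnah7b, an inner arm dynein, stood at 1.83, 2.06, 1.85 and 1.75 CPM in Loxp against 3.47 and 3.33 in Hetero (0.86, SE 0.236). Unlike choroid plexus markers, these genes were not highest in Hetero 2. Ependymal markers, which share the ciliated cell type of the ventricle wall, stood at 0.56 in Hetero 1 and −0.01 in Hetero 2. Their level was 0.47, −0.21, 0.05 and −0.53 in Loxp 1 to 4, so Hetero 2 was within the Loxp range and Hetero 1 just above Loxp 1. In the fit 8 of 9 were higher, and 1 (Pltp) lay above the Loxp range. The median log2 fold change was 0.46, and −0.06 without Hetero 1. The part of these cells in the cilia values was not tested.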
